A study of Poecilia mexicana x Poecilia latipinna and Poecilia formosa with 28 samples.

Results

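The ovary of the Amazon molly, Poecilia formosa, was compared with the ovary of laboratory F1 hybrids between Poecilia mexicana and Poecilia latipinna. The comparison rests on the ovary columns of the count table, which are 8 of the 28 libraries of the series. The P. formosa ovaries came from fish 3, 4, 11 and 12, which belonged to 1 clone that was kept in the aquarium for about 70 generations and stemmed from 1 female. The hybrid ovaries came from fish 4, 10, 12 and 13 of 1 brood, whose mother was a virgin P. mexicana and whose father was a P. latipinna. All fish were untreated females of 3 months, raised under the same conditions and matched for size, per the labels. The P. formosa fish are thus members of 1 clone and the hybrids are sisters. The p-values measure the spread within 1 clone and 1 brood, not that among other clones or broods.

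Poecilia formosa is an all-female species that arose from hybridisation of these parental species. It reproduces by gynogenesis: the egg forms without the usual reduction of chromosomes, and sperm of a related species starts its development without passing on genes. The ovary of a livebearing fish holds oocytes of several stages, the follicle cells around them, stroma, and in a pregnant female the embryos. Whether the fish carried embryos is not given in the labels. In such bulk tissue, fewer cells of a type and less RNA per cell cannot be told apart. The comparison asks how the organ that makes the eggs differs between a long-established clonal hybrid and a first-generation hybrid.

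Genes carry only numeric IDs in the count table, and the files do not pair these with names. The ovary label could therefore not be checked against named marker genes, and no pathway can be described by name. Genes are described instead by their level in ovary and by how far their level in ovary exceeds that in brain and liver. At most 2 IDs are given per direction, and other single genes are described without an ID. Levels are counts scaled to library size (CPM, TMM-scaled), which are not corrected for transcript length, so the level classes sort genes by read number. Ovary levels were scaled over the 8 ovaries, and brain levels, liver levels and the ratios between organs over all 28 libraries.

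The ovary libraries held 42958246 to 43181547 counts in P. formosa and 41249726 to 45987727 counts in the hybrids. Genes with at least 1 CPM numbered 18126 to 18546 in P. formosa and 18034 to 18496 in the hybrids. As a check of the organ, genes enriched at least 4-fold in ovary, brain or liver over both other organs were found in 1 genotype and counted in the other. Ovary-enriched genes chosen in this way took 28.6% to 30.4% of counts in P. formosa ovaries and 27.7% to 31.8% in hybrid ovaries. Brain-enriched genes took 2.02% to 2.23% in P. formosa ovaries and 1.49% to 1.78% in hybrid ovaries, and liver-enriched genes took 5.77% to 7.50% in P. formosa ovaries and 4.47% to 5.64% in hybrid ovaries. Each genotype was thus counted over a class of its own, so these shares are not compared between genotypes.

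The genotypes lay apart on the main axis of variation among the 8 ovaries. Principal components were taken of log2 CPM, with 2 CPM added, over the 13948 genes that averaged 5 CPM or more. The first component held 61.7% of the variance, with P. formosa scores from 28.7 to 32.6 and hybrid scores from -40.1 to -21.8. On it hybrids 4 and 10 lay at -21.8 and -24.3, and hybrids 12 and 13 lay farther from P. formosa, at -40.1 and -34.7. The second component held 18.7% and also spread the hybrids. Hybrids 4 and 10 lay at -23.9 and -25.6, and hybrids 12 and 13 lay at 31.2 and 6.80, while the P. formosa ovaries lay between 0.121 and 4.99. The library numbers of hybrids 12 and 13 belong to a second series, whereas those of hybrids 4 and 10 and of all P. formosa fish belong to the first. The labels do not call these series batches, and the part of series in either component was not tested.

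**Figure D1:**
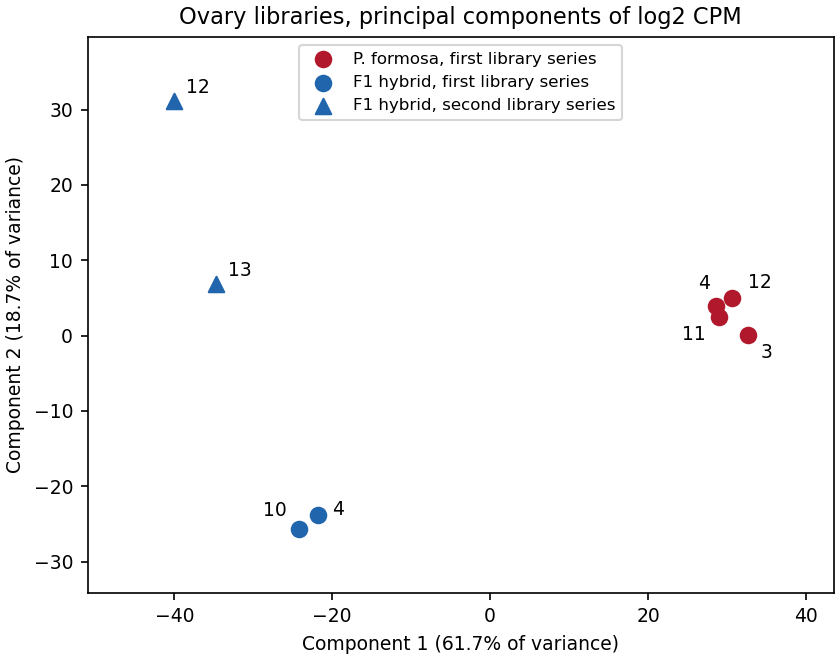
Principal component scores of the 8 ovary libraries, from log2 CPM of 13948 genes, with fish numbers beside the points (red, P. formosa; blue, F1 hybrid; circles and triangles, first and second series of library numbers). The P. formosa ovaries lie together at 28.7 to 32.6 on component 1, and the hybrids lie at -40.1 to -21.8 and are spread along component 2.

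In ovary, 22164 genes were tested, of which 3158 were higher in P. formosa than in the hybrids and 2894 were lower (edgeR quasi-likelihood test, Benjamini-Hochberg adjusted p under 0.05). These are 14.2% and 13.1% of the genes tested, 27.3% together, and they are called genes below. The called differences were mostly modest. A median called gene that was higher differed by 0.81 on the log2 scale and a median called gene that was lower by -0.73, and the median over all genes was -0.02. Differences over 2-fold numbered 1307 higher and 1064 lower genes (5.9% and 4.8% of genes tested). Differences over 8-fold numbered 210 higher and 176 lower genes (0.947% and 0.794%).

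Higher genes were 14.2% and lower genes 13.1% of genes tested, and their shares of ovary counts are given beside these. The 3158 higher genes took 14.4% to 14.8% of counts in P. formosa ovaries, against 9.58% to 10.4% in hybrid ovaries. The 2894 lower genes took 12.1% to 12.3% of counts in P. formosa and 16.1% to 17.1% in the hybrids. These shares describe genes chosen by the same values. Of the 6052 called genes, 5626 had no overlap between the 4 P. formosa and the 4 hybrid values. Over all genes tested, values did not overlap for 16.8% in the higher and 14.6% in the lower direction.

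The calls were also counted within the library series. Against hybrids 4 and 10, of the same series as the P. formosa fish, P. formosa was higher for 3651 genes and lower for 3401. Against hybrids 12 and 13 alone 4718 were higher and 4656 lower, but there genotype and series cannot be told apart. The lower genes numbered 1927 when P. formosa fish 12 was left out. With all 28 libraries in 1 fit, which shares 1 estimate of the spread over organs, 1641 genes were higher and 1605 lower.

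The size of the called difference fell with each level class up to 100 to 500 CPM, and the share of genes called varied between classes. Genes under 1 CPM were called in 20.1% of 3557 cases, genes at 5 to 20 CPM in 32.2% of 4642, and genes at 500 CPM or more in 22.5% of 160. The classes between lay at 29.3% (1 to 5 CPM), 26.5% (20 to 100 CPM) and 27.4% (100 to 500 CPM). With all 28 libraries in 1 fit the share was 15.9% under 1 CPM and 20.1% at 1 to 5 CPM. From there it fell with each class, to 18.1%, 8.45%, 4.32% and 0.625% in the highest. The median size of a called difference was 1.78 on the log2 scale under 1 CPM, 1.19 at 1 to 5 CPM, 0.81 at 5 to 20 CPM, 0.43 at 20 to 100 CPM, 0.31 at 100 to 500 CPM and 0.35 at 500 CPM or more. At low level mostly large differences passed the test: the 10th percentile of called differences was 1.07 on the log2 scale under 1 CPM and 0.19 at 100 to 500 CPM. Smaller differences of scarce genes were seldom called, and the part of sequencing depth in this was not tested. Among all genes, called or not, the median size was 0.58 under 1 CPM and 0.13 at 100 to 500 CPM. Of called genes, 92.6% under 1 CPM, 38.6% at 5 to 20 CPM and 4.17% at 100 to 500 CPM differed by more than 2-fold.

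**Figure D2:**
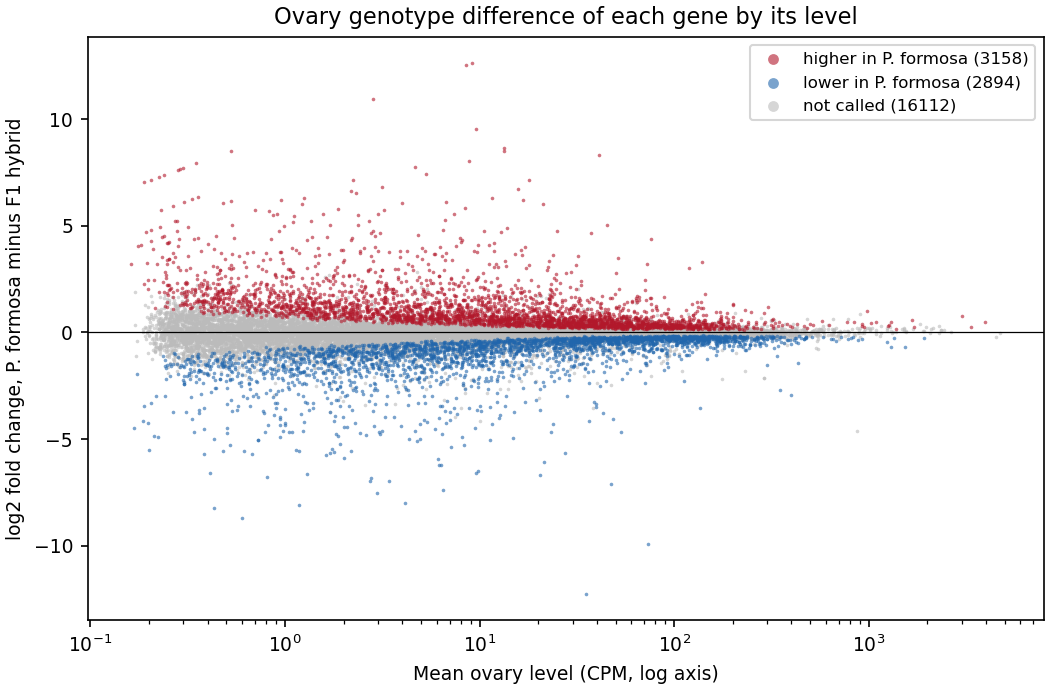
Log2 fold change of P. formosa minus F1 hybrid in ovary against mean ovary CPM (log axis) for the 22164 genes tested, 1 point per gene (red, higher in P. formosa; blue, lower; grey, not called). Large differences lie at low and middle levels, and the called genes narrow toward 0 as the level rises.

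The balance of directions also changed with level. Higher genes outnumbered lower genes under 1 CPM, with 428 against 287, and at 5 to 20 CPM, with 811 against 683. Under 1 CPM, a filter of at least 1 CPM in either group left 508 genes, of which 130 were higher and 108 lower (46.9%). These genes passed the filter only through the group where they were high, so that share is raised by construction. At 5 to 20 CPM the order turned against hybrids 12 and 13 alone, with 1031 higher and 1148 lower. At 100 to 500 CPM the order was the opposite: P. formosa was higher for 242 genes and lower for 429 (9.87% and 17.5% of 2451). Scaling factors of another kind left that order in place, with 233 and 426 genes for RLE factors and 226 and 467 for upper-quartile factors. Against hybrids 4 and 10 the numbers were 271 higher and 580 lower, and against hybrids 12 and 13 they were equal, at 561 each. The lower genes of this class numbered 251, 247 and 256 without P. formosa fish 4, 11 or 12, and the higher genes 184, 182 and 178.

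**Figure D3:**
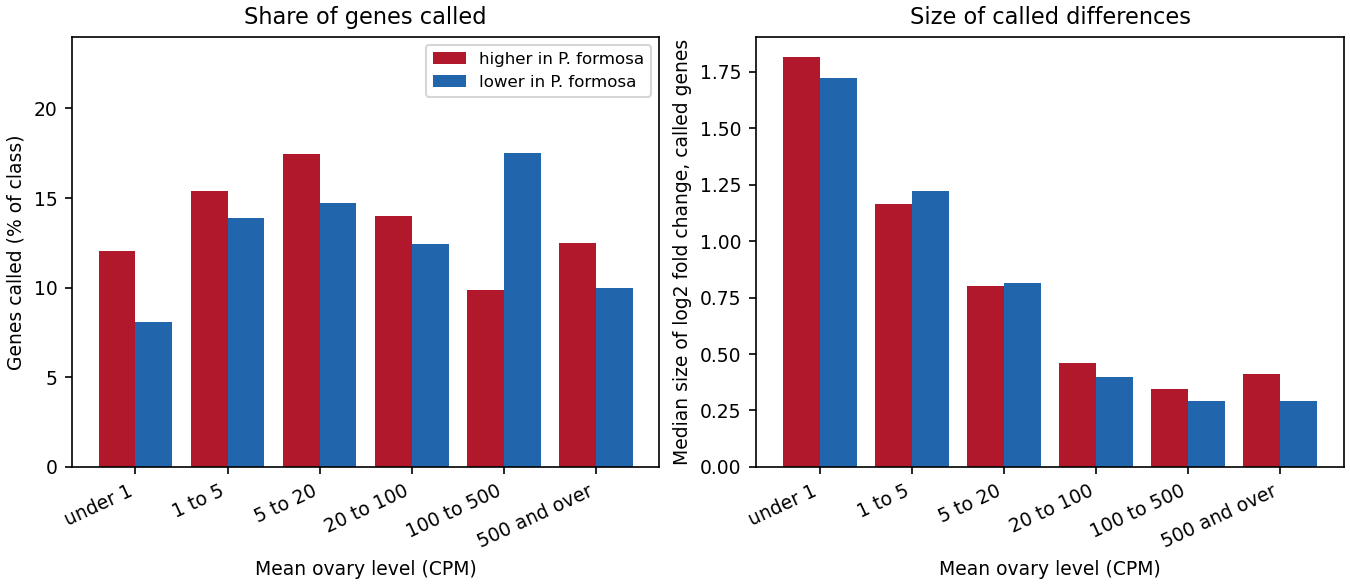
Left, percentage of the genes in each class of mean ovary CPM that were called higher (red) or lower (blue) in P. formosa. Right, median size of the log2 fold change of those called genes, which falls from over 1.7 under 1 CPM to about 0.3 at 100 to 500 CPM.

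The called differences among the most abundant messages of the ovary were small in size, while the share called was near that of all genes. Of the 100 genes with the highest level, 17 were higher and 12 lower in P. formosa, beside 14.2% and 13.1% of all genes tested. None of these 29 called genes differed by more than 2-fold except gene 103147473, described below. Another gene among the 100 had a log2 fold change of -4.62 and was not called, and its level of 5947 CPM in hybrid ovary 12 stood far above the other hybrids. Of the 10 most abundant genes, 6 had at least 16 times the CPM in ovary that they had in brain or liver. Such a ratio was found for 598 genes tested, of which 15.6% were higher in P. formosa. Of the 6 genes here, 3 were higher. They stood at 4582 ± 493, 3653 ± 310 and 3765 ± 478 CPM in P. formosa, against 3286 ± 523, 3010 ± 219 and 2238 ± 208 CPM in the hybrids (SD, n = 4 each). Their log2 fold changes were 0.48, 0.28 and 0.75, with adjusted p of 0.0171, 0.0279 and 5.7e-04 (edgeR quasi-likelihood test). The first was not called without P. formosa fish 3 (edgeR adjusted p = 0.0505) or with library series as a term (log2 fold change 0.32, edgeR adjusted p = 0.0573), and the second was not called without P. formosa fish 3, 11 or 12 (edgeR adjusted p = 0.060, 0.0517 and 0.0542). None of the 3 was called with all 28 libraries in 1 fit. The most abundant gene of all was not called, at 4712 ± 242 CPM in P. formosa and 4754 ± 530 CPM in the hybrids (SD, n = 4 each).

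To see how restricted to ovary the called genes were, the mean ovary CPM of each gene was divided by the higher of its brain and liver means, with both genotypes weighted equally and 0.5 CPM added. The ratio uses the same ovary libraries as the test. Of 2323 genes with at least 4 times the level in ovary, called ovary-enriched here, 413 were higher and 388 lower in P. formosa (17.8% and 16.7%). Of the other 19841 genes, 2745 were higher (13.8%) and 2506 lower (12.6%). Together 34.5% of the ovary-enriched and 26.5% of the other genes were called, beside 27.3% of all genes. The other genes include all 3557 genes under 1 CPM, of which 20.1% were called, since the added 0.5 CPM keeps these out of the ovary-enriched class. By class, the called share was 26.7% of genes at least 4-fold lower in ovary than elsewhere, 25.5% of genes within 2-fold, 28.9% at 2- to 4-fold higher, 35.1% at 4- to 16-fold higher and 32.6% at 16-fold or more. No test was made between these classes. The order was the reverse with all 28 libraries in 1 fit, where 9.60% of the ovary-enriched genes and 6.35% of those at 16-fold or more were called, against 11.2% of genes within 2-fold and 19.7% of genes at least 4-fold lower in ovary. Of the called ovary-enriched genes 51.6% were higher in P. formosa. That share was 44.0% against hybrids 4 and 10, 61.8% against hybrids 12 and 13 and 47.9% without hybrid fish 12.

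The median level in ovary was 53.9 CPM for the ovary-enriched genes and 9.62 CPM for the rest. This gap is in part set by the class definition, since no gene under 1 CPM could enter the ovary-enriched class. The classes were therefore set side by side at equal level. At 5 to 20 CPM, 43.5% of 496 ovary-enriched genes were called and 30.8% of 4146 others. At 20 to 100 CPM the shares were 31.6% of 943 and 25.6% of 5752, and at 100 to 500 CPM 30.9% of 637 and 26.1% of 1814. The ovary-enriched share was the larger at each of these levels in the ovary test. With all 28 libraries in 1 fit the shares at 5 to 20 CPM were 18.75% and 18.04%. At 5 to 20 CPM the ovary-enriched genes also split unevenly, with 132 higher and 84 lower, against 679 and 599 of the others. That balance stood at 134 and 109 against the hybrids of the first series and at 165 and 91 against those of the second.

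**Figure D4:**
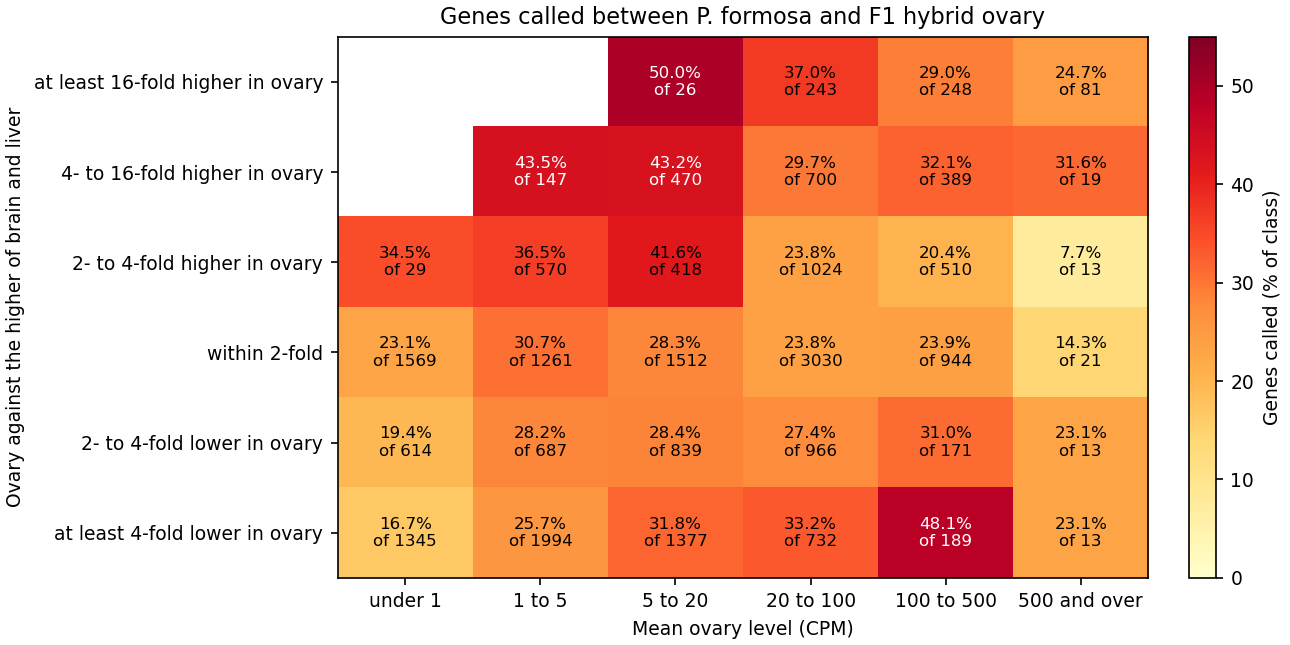
Percentage of genes called between P. formosa and F1 hybrid ovary, by mean ovary CPM (columns) and by the ratio of ovary to the higher of brain and liver (rows), with the number of genes tested in each cell. Called shares over 40% lie at 1 to 20 CPM in the rows of higher level in ovary, and among genes at 100 to 500 CPM that are at least 4-fold lower in ovary, at 48.1% of 189.

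A set of 428 genes had at least 5 CPM in ovary and under 0.5 CPM in both brain and liver. Of these, 107 were higher and 87 lower in P. formosa, 45.3% in all, and 58 and 44 differed by more than 2-fold. Their median level was 10.8 CPM, and the called share of all genes at 5 to 20 CPM was 32.2%. With all 28 libraries in 1 fit these shares were 19.9% and 18.1%, and the difference between them was not tested. The median size of a called difference was 1.04 on the log2 scale, against 0.81 for all called genes at 5 to 20 CPM. The share called was 49.1% against the hybrids of the first series and 53.3% against those of the second. The direction was not stable between them, with 104 higher and 106 lower against the first and 143 and 85 against the second.

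Whether ovary-enriched genes leaned to one direction depended on which fish defined the class. With organ levels taken from hybrid libraries alone, 13.3% of the class were higher and 20.9% lower in P. formosa. With organ levels from P. formosa libraries alone, 20.6% were higher and 12.5% lower. A gene that is high in ovary of 1 genotype enters the class of that genotype more easily, so both values lean by construction. With both genotypes weighted equally the median log2 fold change of the class was -0.0028, beside -0.02 over all genes tested.

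The counts among strongly expressed genes depended on the fit and on the hybrids used. At 500 CPM or more, P. formosa was higher for 19 and lower for 7 of 100 ovary-enriched genes, while 1 of 60 others was higher and 9 lower. Against hybrids 12 and 13 the ovary-enriched genes numbered 50 higher and 6 lower, and against hybrids 4 and 10 they numbered 16 and 17. The others numbered 11 higher and 9 lower against hybrids 12 and 13, and 1 and 23 against hybrids 4 and 10. With library series as a term the ovary-enriched genes numbered 13 and 13, and with all 28 libraries in 1 fit 0 and 1, while no other gene of this class was called there. Without P. formosa fish 3 or 11 the ovary-enriched genes numbered 10 and 7 or 12 and 4, and without hybrid fish 12 they numbered 16 and 11. The lower genes among the others numbered 4, 5 and 3 without P. formosa fish 4, 11 or 12.

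Genes with a higher level in another organ formed the other corner of the pattern. At 100 to 500 CPM in ovary, 189 genes were still at least 4-fold lower in ovary than elsewhere, and for 167 of them the liver was the highest organ. Of all 2451 genes at this level 27.4% were called, 242 higher and 429 lower. P. formosa was higher for 7 and lower for 84 of the 189 genes (48.1% called, with a median log2 fold change of -0.21 over all 189). Their summed share of counts was 3.20%, 3.29%, 3.60% and 3.03% in P. formosa ovaries 3, 4, 11 and 12, against 3.31%, 3.65%, 4.12% and 3.72% in hybrid ovaries 4, 10, 12 and 13. The groups overlapped in that sum, since P. formosa fish 11 lay above hybrid fish 4. The lower direction held against the hybrids of either series, with 13 higher and 70 lower genes for the first and 15 and 105 for the second. Without P. formosa fish 12 the numbers were 5 and 39, without fish 11 they were 5 and 47, and without fish 4 they were 6 and 51. With library series as a term they were 7 and 49 (29.6% called), and with all 28 libraries in 1 fit they were 3 and 7.

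At all levels together, genes highest in liver and genes highest in brain differed in balance. Of 2271 genes at least 4-fold lower in ovary with the highest level in liver, 229 were higher and 363 lower in P. formosa ovary (median log2 fold change -0.18). Of 3379 such genes with the highest level in brain, 16.4% were higher and 10.8% lower (median 0.02). Over all genes tested 14.2% were higher and 13.1% lower. In total 26.1% of the liver class and 27.2% of the brain class were called, near the 27.3% of all genes. The liver balance turned with the hybrids used: it was 361 higher and 304 lower against the first series and 301 and 780 against the second. The brain balance turned as well, with 667 and 328 against the first series and 619 and 787 against the second. Without P. formosa fish 11 or 12 the lower genes with the highest level in liver numbered 224 and 196. Without P. formosa fish 3, 4 or 12 the lower genes with the highest level in brain numbered 220, 230 and 233. All liver-enriched genes together took 4.99% to 6.72% of counts in P. formosa ovaries and 5.30% to 6.61% in hybrid ovaries, and all brain-enriched genes took 1.71% to 1.90% in P. formosa ovaries and 1.62% to 1.92% in hybrid ovaries. The part of admixed tissue in these balances was not tested.

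Most of the 386 genes that differed by more than 8-fold were not ovary-enriched, and the same holds for all genes tested. Of those 22164 genes, 2323 were ovary-enriched and 8337 were within 2-fold of another organ. Among 210 higher genes, 34 were ovary-enriched and 85 were within 2-fold of another organ, and among 176 lower genes these numbers were 18 and 87. The median level in the higher group was 3.46 CPM for the higher and 3.93 CPM for the lower genes. All 210 higher genes and 169 of the 176 lower genes had no overlap between the groups, beside 16.8% and 14.6% of all genes tested. These genes were chosen by the same values, so little overlap follows from the choice. Some genes were counted almost wholly in 1 genotype, with at least 1 CPM in each of its 4 ovaries and at most 3 counts over the 4 ovaries of the other. Counted in CPM of the library total, 3 genes met this rule in P. formosa, with ratios of ovary to the other organs of 1.34, 10.9 and 4.61 after the 0.5 CPM was added, as explained above. The last of these had 4.96 to 6.62 CPM in P. formosa ovary, no count in hybrid ovary and was listed at 0 in brain and liver of both genotypes, so its ratio is set by the added CPM. In the hybrids 2 genes met the rule, with ratios of 7.70 and 2.15. The part of read mapping in these counts was not tested.

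The 2 genes per direction with the highest level among called, ovary-enriched genes over 2-fold apart were drawn from 131 higher and 99 lower genes. Gene 103147473 stood at 1605, 1228, 1201 and 1224 CPM in P. formosa ovaries 3, 4, 11 and 12, against 715, 672, 543 and 648 CPM in hybrid ovaries 4, 10, 12 and 13. The groups did not overlap, and P. formosa fish 3 stood above the others of its clone. The log2 fold change was 1.03 ± 0.12 (approximate SE, n = 4 and 4; edgeR quasi-likelihood test, adjusted p = 1.8e-04). With all 28 libraries in 1 fit the adjusted p was 0.347. In brain it had 0.371 to 0.994 CPM in P. formosa and 0 to 0.264 CPM in the hybrids. In liver it had 1.53, 20.8, 2.87 and 14.3 CPM in P. formosa fish 3, 4, 11 and 12, against 0.0573 to 1.62 CPM in the hybrids. P. formosa livers 4 and 12 thus stood above P. formosa livers 3 and 11 and above the hybrid livers.

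Gene 103141874 had 420, 413, 418.7 and 432.98 CPM in P. formosa ovaries 3, 4, 11 and 12, against 196, 139, 270 and 126 CPM in hybrid ovaries 4, 10, 12 and 13. The fish of the clone were nearly alike, at 421.1 ± 8.48 CPM, and the hybrid sisters varied widely, at 183 ± 65.7 CPM (SD, n = 4 each). The groups did not overlap. The log2 fold change was 1.20 ± 0.22 (approximate SE, n = 4 and 4; edgeR quasi-likelihood test, adjusted p = 0.0049). In brain and liver the genotypes overlapped, with 6.87 to 8.62 CPM in P. formosa brain and 5.45 to 9.59 CPM in hybrid brain, and with 5.58 to 11.0 CPM in P. formosa liver and 4.18 to 12.7 CPM in hybrid liver. The genotype difference itself was larger in ovary than in brain by 1.16 on the log2 scale (adjusted p = 0.0317) and than in liver by 1.12 (adjusted p = 0.0166), by edgeR in 1 fit of all 28 libraries. Without P. formosa brains 4 and 11 the contrast with brain did not pass (edgeR adjusted p = 0.134). It also did not pass without hybrid fish 13 (edgeR adjusted p = 0.123). The same held without P. formosa fish 3, 4, 11 or 12 (edgeR adjusted p = 0.0560, 0.0795, 0.0728 and 0.0772). The contrast with liver did not pass without hybrid fish 13, P. formosa fish 3 or P. formosa fish 11 (edgeR adjusted p = 0.0652, 0.0592 and 0.0521). Each of these contrasts stayed positive.

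Gene 103142463 was lower in P. formosa, with 245, 233, 252 and 221 CPM in P. formosa ovaries 3, 4, 11 and 12 and 643, 684, 564 and 633 CPM in hybrid ovaries 4, 10, 12 and 13. Neither group came near the other. The log2 fold change was -1.41 ± 0.07 (approximate SE, n = 4 and 4; edgeR quasi-likelihood test, adjusted p = 1.4e-06). Liver values leaned the other way and just overlapped, with 6.74 to 11.7 CPM in P. formosa and 1.49 to 6.79 CPM in the hybrids. The genotype difference of ovary minus that of liver was -2.70 on the log2 scale (edgeR adjusted p = 3.6e-05). Against brain it was -1.90 (edgeR adjusted p = 0.0057), and without P. formosa brains 4 and 11 it was -1.30 (edgeR adjusted p = 0.141).

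Gene 103149723 had the largest ratio to other organs among these genes, 222.6-fold with the 0.5 CPM added. The ratio of gene 103147473, 109.8, includes its higher values in P. formosa livers 4 and 12. Gene 103149723 stood at 103, 91.2, 88.2 and 85.8 CPM in P. formosa ovaries 3, 4, 11 and 12, against 711, 721, 635 and 730 CPM in hybrid ovaries 4, 10, 12 and 13. The hybrid ovaries were all several times higher. The log2 fold change was -2.92 ± 0.08 (approximate SE, n = 4 and 4; edgeR quasi-likelihood test, adjusted p = 3.0e-08). In brain it was at most 0.193 CPM in P. formosa and at most 0.316 CPM in the hybrids, and in liver at most 1.84 CPM in P. formosa and at most 1.91 CPM in the hybrids.

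**Figure D5:**
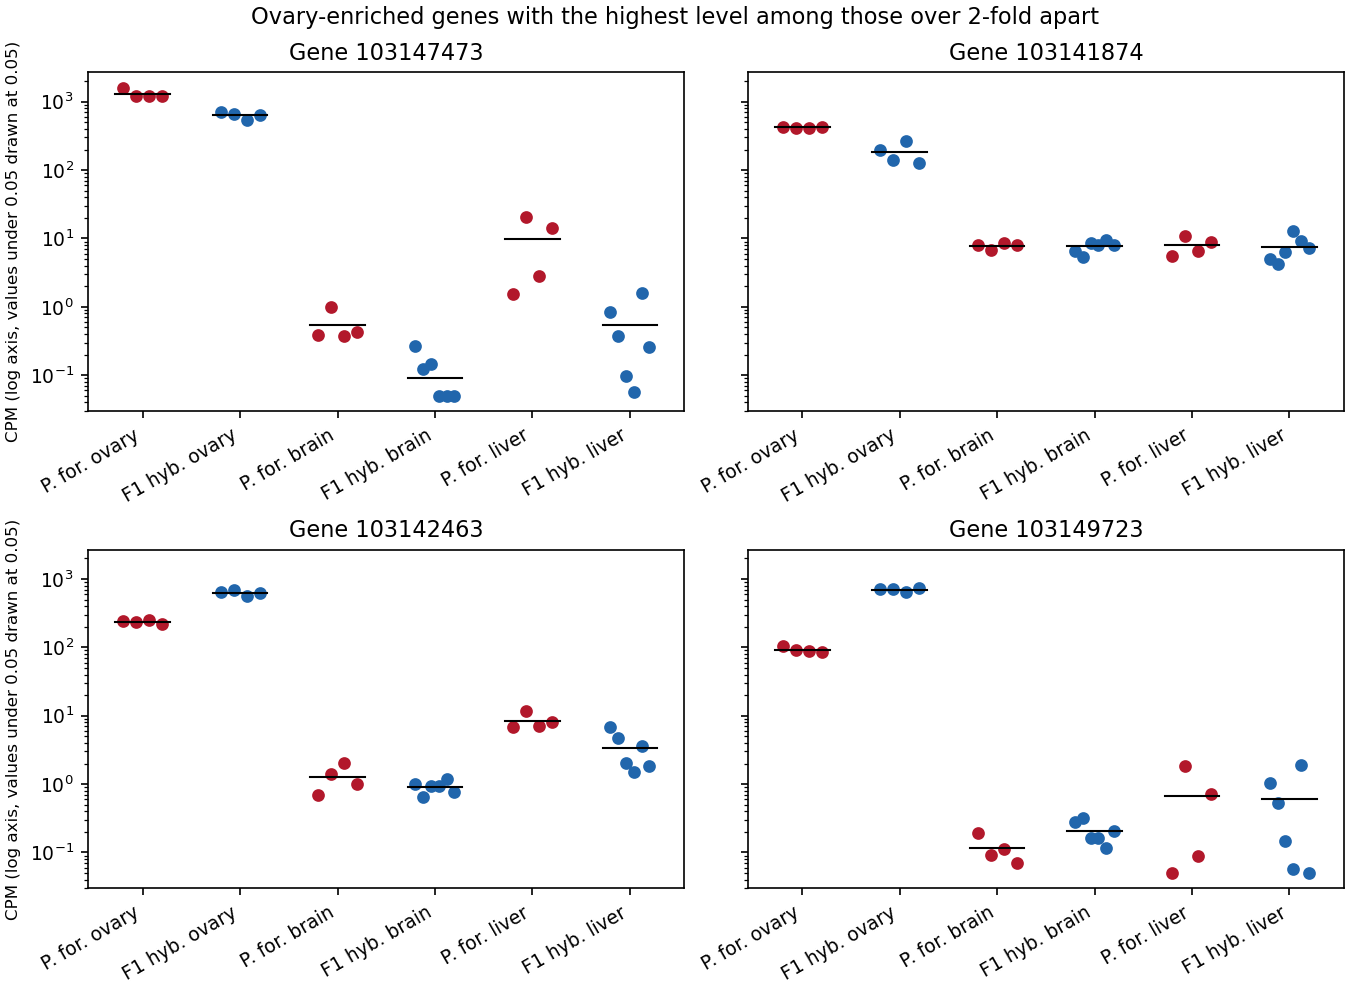
CPM (log axis, values under 0.05 drawn at 0.05) of the named ovary-enriched genes in every library, P. formosa in red and F1 hybrid in blue, with the group mean as a line. In ovary the genotypes do not overlap for any of the genes, and genes 103147473 and 103149723 have higher values in P. formosa livers 4 and 12 than in P. formosa livers 3 and 11.

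Called ovary genes were compared with the calls of brain and liver, each from that organ's own test on the same fish and further hybrids. In P. formosa brain 7.79% of genes tested were higher and 4.27% lower, and in P. formosa liver 24.2% were higher and 22.5% lower. The genes higher in both ovary and brain were 11.8% of the ovary list and 21.1% of the brain list, and those lower in both were 8.12% and 24.3%. The genes higher in both ovary and liver were 22.1% of the ovary list and 16.5% of the liver list, and those lower in both were 22.0% and 16.3%. The ovary list includes genes that were not tested in the other organ, so its shares are not set against the shares of tested genes. Among those tested in liver, 697 of 2047 higher and 637 of 2219 lower ovary genes were called in the same direction. Among those tested in brain the numbers were 372 of 2839 and 235 of 2615. Most ovary calls were thus not made in the same direction in brain or liver, in part because genes were not tested there. A missed threshold in another organ also does not show a difference between organs. Ovary-enriched lower genes had a median log2 fold change of -0.52 in ovary, of 0.15 over the 293 tested in brain and of 0.40 over the 224 tested in liver. Ovary-enriched higher genes had medians of 0.65 in ovary, of 0.21 over 316 genes in brain and of 0.80 over 199 genes in liver. The ovary medians, unlike the others, are of genes chosen by the same ovary values. The liver medians include P. formosa livers 4 and 12, which are described below, and were not taken without them.

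The difference between organs was tested as an interaction in 1 fit of all 28 libraries. The genotype difference of ovary differed from that of brain for 3032 of 24871 genes (12.2%), of which 1064 were more positive (4.28%) and 1968 more negative (7.91%) in ovary. It differed from that of liver for 9376 (37.7%), of which 3655 were more positive (14.7%) and 5721 more negative (23%) in ovary. With the fish as a block, since organs of a fish come from 1 animal, the number for brain was 1992. In P. formosa brains 4 and 11 brain-enriched genes took 33.4% and 24.1% of counts, against 37.3% and 37.0% in P. formosa brains 3 and 12. Without P. formosa brains 4 and 11 the number was 1211, and without P. formosa fish 11 it was 1589. Of the 6052 genes called in ovary, 928 (15.3%) had a difference that exceeded those of both other organs in its own direction. These were 333 higher and 595 lower genes. Among the 801 ovary-enriched called genes such a difference was found for 62 (7.74%), 17 higher and 45 lower. These genes were called on the same ovary libraries that enter the interaction. Against brain alone, 837 of 3158 higher and 925 of 2894 lower genes exceeded the other organ. Without P. formosa brains 4 and 11 these numbers were 489 and 464. The counts against both organs were not taken without these brains or without P. formosa livers 4 and 12, which are described below, nor over all genes tested.

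Among the genes at least 16-fold enriched in ovary, the contrast with liver depended on 2 liver libraries. Of 102 lower genes, 57 had a genotype difference more negative in ovary than in liver. Of 93 higher genes, 45 also had one more negative in ovary. Over all called genes these numbers were 1202 of 2894 lower and 486 of 3158 higher genes. The 598 genes of this class took 0.0473%, 0.148%, 0.0840% and 0.133% of counts in P. formosa livers 3, 4, 11 and 12, and 0.0285% to 0.0575% in hybrid livers. P. formosa livers 4 and 12 thus stood above the others. Without these 2 livers, an alternative chosen after seeing the data, the numbers were 19 of 102 and 5 of 93. Over all called genes they were then 986 of 2894 and 355 of 3158. Over the called genes at least 4-fold enriched in ovary they were 168 of 388 lower and 109 of 413 higher genes with all livers. Without livers 4 and 12 they were 102 of 388 and 43 of 413. Without P. formosa fish 4 in any organ the numbers were 36 of 102 and 26 of 93 in the 16-fold class. Over all called genes they were then 1047 of 2894 and 404 of 3158. For gene 103149723 the contrast with liver was -2.96 with all livers (edgeR adjusted p = 0.0112) and 0.76 without these (adjusted p = 0.782). For gene 103147473 it was -3.15 with all livers (edgeR adjusted p = 0.0082) and -0.99 without these (adjusted p = 0.418). The part of admixed ovary tissue in these livers was not tested.

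The P. formosa ovaries lay closer to their group mean than the hybrid ovaries did in every class of restriction. Deviations were absolute differences from the group mean of log2 CPM, with 2 CPM added, scaled by the same factor for group size in both groups. Their median per fish was 0.0506 to 0.0994 in P. formosa and 0.1005 to 0.182 in the hybrids for genes at least 16-fold enriched in ovary. For genes at least 4-fold lower in ovary it was 0.0747 to 0.124 in P. formosa and 0.139 to 0.230 in the hybrids. The groups did not overlap in any of the 6 classes of restriction, nor over all 13948 genes, with 0.0528 to 0.0984 in P. formosa and 0.105 to 0.146 in the hybrids. At 500 CPM or more they overlapped, with 0.0504 to 0.113 in P. formosa and 0.0762 to 0.227 in the hybrids. The hybrid ovaries come from both series of library numbers and the P. formosa ovaries from 1, so brood and series cannot be told apart in this spread. As pairs, the P. formosa ovaries differed by a chi-square per degree of freedom of 13.4 to 46.6. Hybrids 4 and 10, of the first series, differed by 31.5, and hybrids 12 and 13, of the second, by 51.9. Hybrid pairs across the series differed by 54.2 to 112.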

How the data were processed

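Per the labels' protocols, total RNA was DNase-treated, passed a RIN above 8 and went into TruSeq mRNA libraries. Per the submitters' processing notes, TopHat2 and featureCounts were used. Tool versions, strand setting, genome build and annotation are not given in the sources used here. Overlapping or antisense genes and close copies may share reads. Reads of the hybrids and of P. formosa may also map unequally, and the part of this in the genotype differences was not tested. The authors deposited 1 table of raw read counts for 31997 genes by 28 libraries. Libraries were grouped by their titles.

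The members and lists were chosen with earlier results of these data known. The ovary test used edgeR 4.0.16 (R 4.3.3): filterByExpr (22164 genes kept), TMM factors, robust quasi-likelihood fit with genotype alone, Benjamini-Hochberg adjusted p under 0.05. Standard errors were approximated from the fold change and its F statistic. Interactions of genotype and organ came from 1 fit of 6 groups over all libraries. Organs of a fish come from 1 animal: deviations of ovary and brain of the same fish correlated at a median of 0.193 and those of ovary and liver at -0.003 over 8 pairs. Named genes were the 2 per direction with the highest level among called, ovary-enriched genes over 2-fold apart. Symbol lists for ovarian cell types and pathways could not be used with unnamed IDs. No ovary libraries agreed within counting noise (chi-square per degree of freedom 13.4 to 112). Depth limits cover counting error only. Alternatives were DESeq2 1.42.0, limma 3.58.1 voom, other scalings and filters, library series, each fish left out and other class definitions. Scripts were checked on simulated data.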

Additional observations from a re-analysis of the deposited data

Results flagged for a closer look

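The search for a library far from the rest of its group covered 44 groups, and chance flags about 1 in 20. For gene 103147473, P. formosa ovary 3 stood apart at 1605 CPM and P. formosa brain 4 at 0.994 CPM.

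Genotype differences that differed between organs by the interaction test of edgeR numbered 3032 genes for ovary against brain and 9376 for ovary against liver. Among the named genes the genotype difference of ovary minus that of liver was -3.15 for gene 103147473, 1.12 for gene 103141874, -2.70 for gene 103142463 and -2.96 for gene 103149723, on the log2 scale. The genotype difference of ovary minus that of brain was 1.16 for gene 103141874 and -1.90 for gene 103142463. For genes 103147473 and 103149723 it was -1.49 and -2.10 and did not pass (edgeR adjusted p = 0.383 and 0.195). Without P. formosa livers 4 and 12 the liver contrasts of genes 103147473 and 103149723 did not pass. Without P. formosa brains 4 and 11 no brain contrast of the named genes passed. Further fits in which contrasts of gene 103141874 did not pass are given above.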

How the results depend on the processing

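Other scalings, tests and filters kept the total of higher and of lower genes within 1.5 times. DESeq2 gave 3627 higher and 3625 lower genes, and limma voom 3334 and 2662. Under 1 CPM the filter of at least 1 CPM in either group gave a called share of 46.9%, which is raised by construction as described above. Against the second series of hybrids 4656 genes were lower and 2025 over 2-fold lower. With all libraries in 1 fit 1641 were higher and 1605 lower, and gene 103147473 was not called. Leaving out each fish in turn gave 2366 to 3227 higher and 1927 to 3175 lower genes (over 2-fold, 1147 to 1386 and 879 to 1318). The called share by rising level class then ranged over 13.9% to 20.3%, 20.4% to 30.4%, 23.96% to 34.1%, 18.3% to 28.2%, 17.5% to 28.3% and 13.1% to 25%. That of ovary-enriched genes ranged over 13.9% to 19.2% (higher) and 12.0% to 18.2% (lower), and the interaction counts over 1589 to 2944 (brain) and 7685 to 9265 (liver). With levels from hybrid or P. formosa ovaries alone, 24.7% and 22.7% of genes under 1 CPM were called. With organ levels from hybrids alone 13.3% of the ovary-enriched class were higher and 20.9% lower, with P. formosa alone 20.6% and 12.5%, and at a 2-fold limit 14.6% were lower. The interaction with brain numbered 1992 with the fish as replicate block and 1211 without P. formosa brains 4 and 11. Fish numbers 4 and 12 occur in both genotypes but name different animals (deviations correlated at -0.25 and -0.06). With that number as a replicate block 355 genes were higher and 228 lower (over 2-fold, 330 and 219), and genes 103147473 and 103141874 were not called. Apart from what is stated here, the cause of these changes was not tested.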

Other observations

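Differences of over 4-fold at 100 CPM or more that were not called were found for 4 genes, chosen after their values were seen. All were highest in hybrid ovary 12 and next highest in hybrid ovary 13. The most extreme had 37.7, 118.5, 61.4 and 54.4 CPM in P. formosa ovaries 3, 4, 11 and 12, against 77.6, 82.5, 5947 and 561 CPM in hybrid ovaries 4, 10, 12 and 13. Its log2 fold change was -4.62 and its edgeR adjusted p 0.0831. Without hybrids 12 and 13 the groups overlap.

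A pair of genes moved alike across the ovaries. The first had 74.0, 138.4, 143.8 and 79.1 CPM in P. formosa ovaries, against 103.9, 178.4, 1120 and 480 CPM in hybrid ovaries, in the same order of fish. The second had 71.3, 140.9, 146.1 and 75.9 CPM in P. formosa ovaries, against 115.7, 198.3, 1115 and 453 CPM in hybrid ovaries. The remaining gene, highest in liver, had 50.4 to 81.5 CPM in P. formosa ovaries, against 54.7 and 62.2 CPM in hybrid ovaries 10 and 4, 154.4 CPM in hybrid ovary 13 and 888 CPM in hybrid ovary 12.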
